A study of Drosophila melanogaster with 24 samples.

Results

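The immune-induced peptides of *Drosophila* were first seen as short peptides that appear in the blood of infected flies, and 7 of their genes, *IM1*, *IM2*, *IM3*, *IM4*, *IM10*, *IM14*, and *IM23*, were followed here in heads of an Alzheimer's disease (AD) model and of control (WT) flies. They were chosen by name, as peptides driven mainly by the Toll pathway that lie outside the 14 classical antimicrobial peptide (AMP) genes, and make up 7 of 13700 genes that the files list under an annotated name. AD flies carried UAS-Aβ42, a human amyloid peptide transgene, under elav-GAL4 c155, a driver active in neurons, in the w1118 background, while WT flies were w1118 crossed with the same driver line, so that both groups carried the driver. The sample labels describe the AD flies as transgenic for hAPP, whereas the study's methods name Aβ42. Male heads, pooled within each library, were collected on days 3, 10, 20, and 30 after eclosion, with 3 libraries for each genotype and age and 24 libraries in all. Nothing in the labels says that the 3 pools of a group came from separate cultures, so the p-values measure the spread between these pools.

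In the Toll pathway, circulating recognition proteins that bind fungal or Gram-positive bacterial cell walls start a cascade of proteases that cuts the ligand Spätzle. Spätzle then binds the receptor Toll, the inhibitor Cactus is degraded, and the transcription factors Dif and Dorsal enter the nucleus and turn on target genes, mostly in the fat body, the fly counterpart of liver and adipose tissue. The heads contain fat body beside brain, eyes, muscle, and blood cells. In whole heads, fewer cells of a type and less RNA per cell cannot be told apart.

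Of the 7 genes, 4 encode Bomanins, a family of secreted peptides that share a short motif and that flies need to survive many fungal and Gram-positive infections. *IM1* (FBgn0034329, now *BomS1*), *IM2* (FBgn0025583, *BomS2*), and *IM3* (FBgn0040736, *BomS3*) encode short Bomanins that are little more than the motif itself, and *IM23* (FBgn0034328, *BomBc1*) encodes a bicipital Bomanin, in which the motif is repeated. All lie in a single cluster on chromosome arm 2R of release 6, with *IM23* at 18382704 to 18383235 on the minus strand, *IM1* at 18383949 to 18384378, *IM2* at 18386602 to 18387030, and *IM3* at 18387895 to 18388734, the last 3 on the plus strand. *IM4* (FBgn0040653, *Dso1*; 20868496 to 20869321, minus strand) and *IM14* (FBgn0067905, *Dso2*; 20870392 to 20870678, plus strand) are neighbours elsewhere on 2R and encode the Daisho peptides, known for antifungal defence. *IM10* (FBgn0053470, *BaraA1*; 13411739 to 13413085, plus strand) encodes a precursor protein that is cut into several peptides, the Baramicins, also antifungal. The annotation places an antisense gene, *CG30059*, across the end of *IM10* at 13412769 to 13414620, and the counting was not stated to use strand. *CG30059* had 0 to 405 normalized counts in the 24 libraries, and no other annotated gene overlapped a member.

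All 7 genes were listed in all 24 libraries and passed the filter on low counts, among 10479 genes tested. The libraries held 12884945 to 26731357 expected counts, with a median of 14887458. The files fell into 2 sets by the lengths of the transcripts the authors had added to the annotation. The first set holds replicate 1 of days 3, 10, and 20 in both genotypes (6 libraries, 21168175 to 26731357 counts), and the second set the other 18 (12884945 to 16237611 counts), so that day 30 exists in the second set only. Markers fixed for neurons, photoreceptors, glia, fat body, blood cells, and muscle were above 0 in every library. In 2 libraries the markers stood apart. *w*, the eye pigment transporter gene that marks mini-white transgenes in a w1118 background, had 3064 to 4372 normalized counts in 11 AD libraries and 1094 to 1832 in the 12 WT libraries, but 1529 in the library labelled AD day 30 replicate 3, which lies inside the WT range. *Yp1*, a yolk protein gene of the female fat body, had 654 normalized counts in WT day 3 replicate 2, against 20.2 and 28.4 in the other WT libraries of that age. Several results for the 7 genes that rest on either library are given with and without it, and other results include both libraries.

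Compared per length, as FPKM (fragments scaled by transcript length and library size), the 7 genes covered more than a 10-fold range of levels. Over the 24 libraries, the median level was 1423 FPKM for *IM3*, 1039 for *IM4*, 867 for *IM10*, 386 for *IM1*, 169 for *IM14*, 150 for *IM2*, and 112 for *IM23*. *IM3* had the highest mean in all 8 groups. *IM4* came next in 5 groups, where its libraries overlapped those of *IM3*, and *IM10* came next in WT flies at day 20 and in both genotypes at day 30, where all its libraries lay below those of *IM3*. *IM1* ranked below *IM3*, *IM4*, and *IM10* in all 8 groups, and the neighbours *IM14*, *IM2*, and *IM23* exchanged ranks between groups. *IM23* was the most variable member, with a highest level 17.4 times its lowest over the 24 libraries, and *IM4* the least, with 4.76 times.

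**Figure D1:**
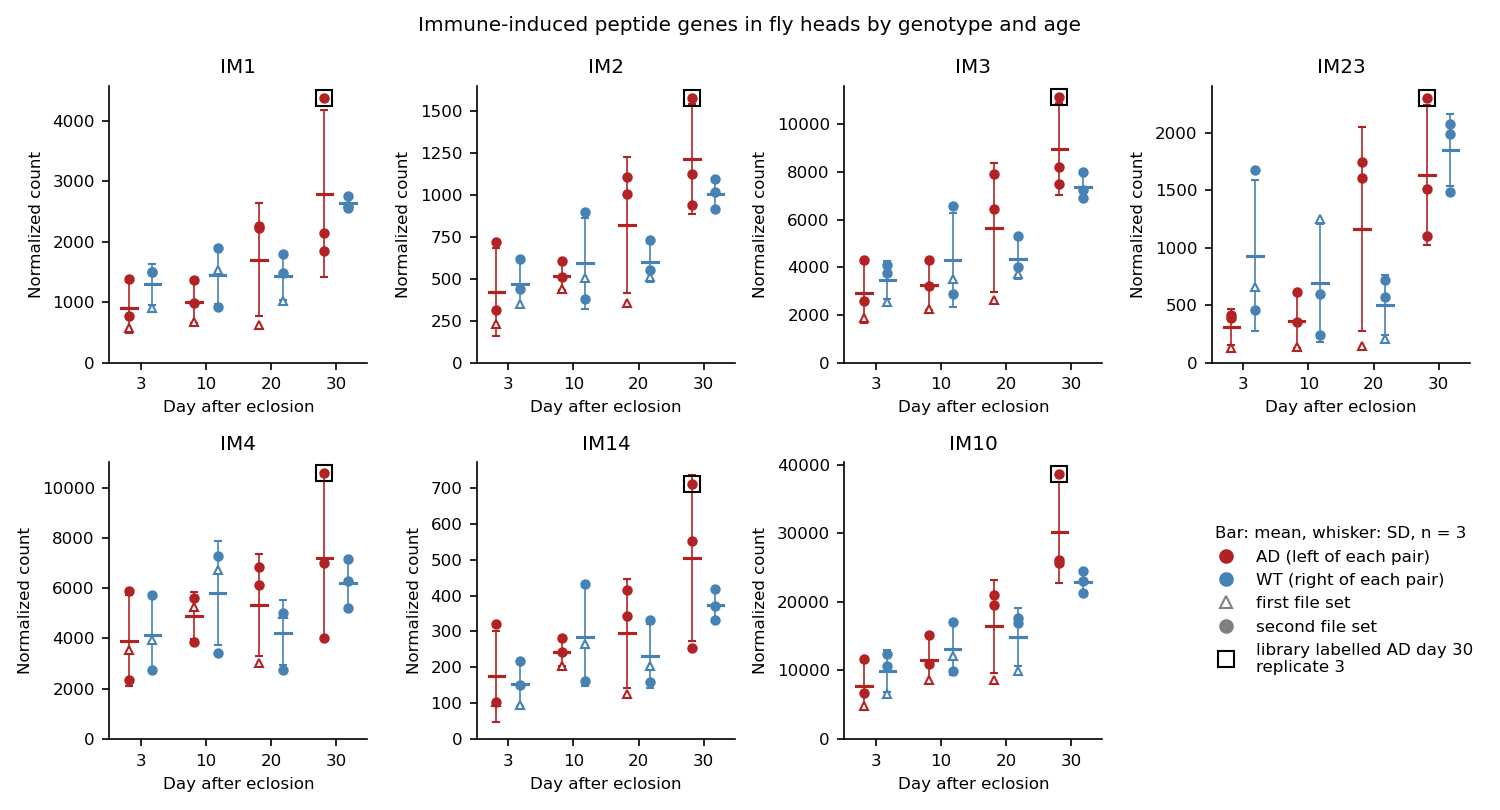
Normalized counts of the 7 genes in each library (y axis) by day after eclosion (x axis), AD in red left of WT in blue, with open triangles for the first file set, filled circles for the second, bars for the mean and whiskers for the SD of 3 libraries. The boxed point, the library labelled AD day 30 replicate 3, is the highest of the 24 for all 7 genes, and the open triangle of AD day 20 lies below both other AD libraries of that age.

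The question of how the peptides change with age was answered by day 30 against day 3 in each genotype. In AD flies 6 of the 7 genes rose, *IM1*, *IM2*, *IM3*, *IM10*, *IM14*, and *IM23*, where 7.68% of all genes tested changed and 3.88% rose. A gene was taken as changed at a false discovery rate (FDR) under 0.05 over all genes in edgeR's quasi-likelihood test and an absolute log2 fold change over 1. In WT flies only *IM10* of the 7 passed, where 4.49% of all genes changed and 1.63% rose, and all 7 log2 fold changes were positive. The WT count depended on the fit. DESeq2 passed *IM2*, *IM3*, and *IM10* in WT flies (2.12% of all genes rose), and limma on log2(FPKM + 1) and on log2(FPKM + 0.1) passed these and *IM14* (1.97% and 2.55%). In fits of only the 2 ages compared, 4 of the 7 passed in AD flies (*IM1*, *IM3*, *IM10*, and *IM23*, where 3.23% of all genes rose) and 5 in WT flies (*IM1*, *IM2*, *IM3*, *IM10*, and *IM14*, where 1.67% rose). The median log2 fold change of the 7 was 1.62 in AD flies and 1.09 in WT flies, beside 0.01 and -0.01 over all genes tested. For 5 of the 7 in AD flies and 5 of the 7 in WT flies, every day 30 library lay above every day 3 library, where 19.8% and 17.1% of all genes tested did so. At an unadjusted p under 0.05 all 7 passed in AD flies and 5 in WT flies, where 34.3% and 26.3% of all genes did. The AMP genes rose over this interval too. Past the edgeR threshold were 13 of the 14 in AD flies and 8 of the 14 in WT flies, with median log2 fold changes of 3.14 and 1.71.

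*IM10*, the Baramicin gene, had the lowest FDR of the 7 in AD flies. Its normalized counts in AD flies were 26152, 25647, and 38577 at day 30, against 4796, 6738, and 11640 at day 3. In WT flies they were 23099, 21320, and 24449 at day 30, against 6503, 10715, and 12443 at day 3. Every day 30 library lay above every day 3 library in both genotypes. The log2 fold change was 1.96 (standard error 0.37, edgeR FDR 9.9e-04) in AD flies and 1.22 (standard error 0.36, FDR 0.036) in WT flies. *IM10* has a near-identical copy, *BaraA2*, listed as *IMPPP*, and its expected counts held fractions in all 24 libraries. *BaraA2* received from 0.0802% to 6.40% of the counts of both genes, and with both added together the log2 fold changes were 1.99 and 1.26. The WT call was kept without WT day 3 replicate 3 and lost without any 1 of the other 5 WT libraries, at 0.99 to 1.29 with FDR from 0.070 to 0.16, whereas the AD call was kept in all alternatives.

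The short Bomanins rose together in AD flies. *IM3* had 7516, 8215, and 11139 normalized counts at day 30, against 1873, 2595, and 4307 at day 3 (log2 fold change 1.62, standard error 0.38, edgeR FDR 0.0053). *IM1* had 1847, 2149, and 4378 at day 30, against 572, 770, and 1379 at day 3 (1.62, standard error 0.45, FDR 0.014). *IM2* had 941, 1129, and 1581 at day 30, against 230, 316, and 722 at day 3 (1.53, standard error 0.42, FDR 0.013). For all 3 genes the day 30 libraries lay above the day 3 libraries, with replicate 3 the highest at both ages. In WT flies the day 30 libraries also lay above all day 3 libraries for each of the 3, and the FDR of the fit over all groups did not pass, while *IM2* and *IM3* passed with DESeq2 and limma and all 3 in the fit of only the ages compared. *IM3* had 8007, 7246, and 6918 normalized counts in WT flies at day 30, against 2553, 3765, and 4080 at day 3 (1.09, FDR 0.067 from edgeR). The log2 fold changes of *IM1* and *IM2* in WT flies were 1.03 (FDR 0.14) and 1.11 (FDR 0.09).

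*IM23*, the bicipital Bomanin gene, had the largest fold change of the 7 in AD flies and a smaller, unresolved one in WT flies. It had 1511, 1098, and 2298 normalized counts in AD flies at day 30, against 128, 413, and 392 at day 3 (log2 fold change 2.40, standard error 0.80, edgeR FDR 0.037), with no overlap between ages. In WT flies it had 2075, 1487, and 1986 at day 30, against 657, 1678, and 458 at day 3 (0.99, standard error 0.76, FDR 0.44). The WT ages overlapped through 1678 at day 3, the value of the library with high *Yp1*, and without that library the WT log2 fold change was 1.75 (FDR 0.23).

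The Daisho genes differed in whether they passed. *IM14* had 255, 551, and 710 normalized counts in AD flies at day 30, against 102, 102, and 322 at day 3, so that the lowest day 30 library lay below the highest day 3 library (log2 fold change 1.54, standard error 0.51, edgeR FDR 0.036). *IM4* had 4028, 6994, and 10571 in AD flies at day 30, against 3523, 2336, and 5895 at day 3, which also overlapped (0.88, standard error 0.41, FDR 0.13). In WT flies the log2 fold changes were 1.28 for *IM14* (FDR 0.11) and 0.58 for *IM4* (FDR 0.38).

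The count of 6 in AD flies rested in part on single libraries. Without the library labelled AD day 30 replicate 3, 2 of the 7 passed, *IM3* (log2 fold change 1.41, edgeR FDR 0.027) and *IM10* (1.73, FDR 0.0061), while *IM1*, *IM2*, *IM14*, and *IM23* were at 1.13, 1.28, 1.19, and 2.06 with FDR from 0.062 to 0.15. Over all genes, 321 of 11183 tested rose in that fit. The same 2 genes passed without AD day 3 replicate 1 and without AD day 3 replicate 2, where 278 of 11184 and 255 of 11009 genes tested rose. Without AD day 30 replicate 2 the call of *IM14* was lost too (1.47, FDR 0.097), where 333 of 11190 genes rose. The call of *IM23* was lost without any 1 of the 6 AD libraries, at 1.99 to 2.64 with FDR from 0.052 to 0.14. Within the second file set, the differences between days 30 and 3 in mean log2 CPM (counts scaled by library size) were 0.85 to 1.95 in AD flies (median 1.34) and 0.63 to 1.06 in WT flies (median 0.95), positive for all 7 genes in both genotypes.

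**Figure D2:**
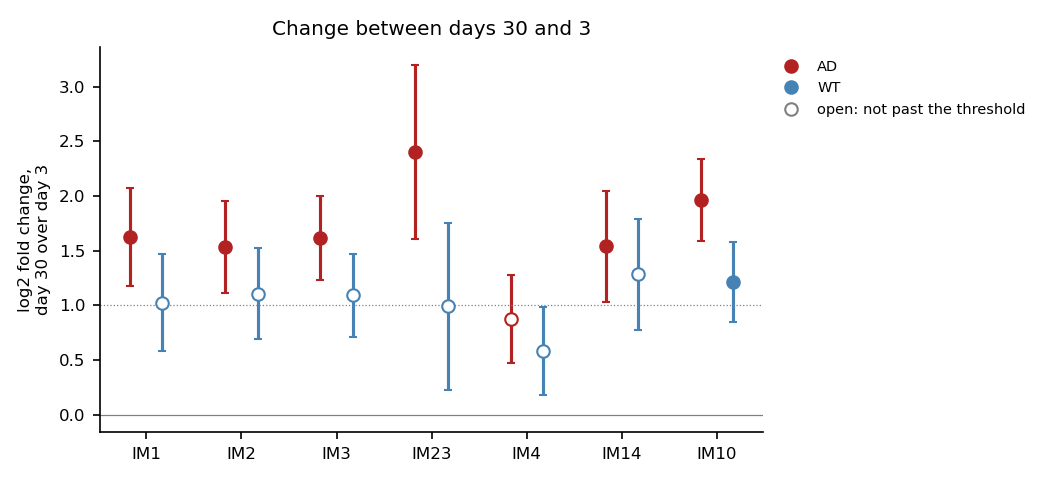
Log2 fold change of day 30 over day 3 (y axis) for each gene (x axis), AD in red left of WT in blue, with whiskers of 1 standard error from edgeR and filled circles for genes past the threshold. All 14 values are above 0, 6 of 7 are filled in AD flies and 1 of 7 in WT flies, and the whiskers of the genotypes overlap for *IM1*, *IM2*, *IM3*, *IM4*, *IM14*, and *IM23*.

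Passing in AD flies and not in WT flies does not show that the genotypes aged differently, so the difference itself was tested. The change between days 30 and 3 in AD flies minus that in WT flies was 0.26 to 1.41 on the log2 scale, largest for *IM23* (standard error 1.08) and then *IM10* (0.75, standard error 0.51). None of the 7 passed, as for all genes tested (0%), and none had an unadjusted p under 0.05 by edgeR or DESeq2 (3.69% of all genes by edgeR), with a smallest edgeR p of 0.156. Without the library labelled AD day 30 replicate 3, the same differences ran from -0.12 to 1.07, with a median of 0.17 in place of 0.52. Without WT day 3 replicate 2, the library with high *Yp1*, they ran from 0.23 to 0.65, with a median of 0.44. In the joint test of genotype by age over all 4 ages, 0 of the 7 passed an FDR under 0.05, where 0.0191% of genes did, and none had an unadjusted p under 0.05 by edgeR or DESeq2, where 2.36% of genes did by edgeR.

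The shorter intervals placed no call on any of the 7. The counts were 0 of 7 for day 10 against day 3 in AD flies (1.21% of all genes changed) and in WT flies (0.563%), and likewise for day 20 against day 10 in AD flies (0.315%) and in WT flies (0.0191%). They were also 0 of 7 for day 30 against day 20 in both genotypes (0% of all genes). At an unadjusted p under 0.05, edgeR gave 2 genes for day 20 against day 10 in AD flies (*IM3* and *IM23*, with 6.49% of all genes), 1 for day 30 against day 20 in AD flies (*IM10*, with 8.25%), and 1 for day 30 against day 20 in WT flies (*IM23*, with 2.29%). It gave 0 for day 10 against day 3 in AD flies (18.4%) and in WT flies (16.1%), and 0 for day 20 against day 10 in WT flies (2.97%). DESeq2 passed none of the 7 in any of them. At an unadjusted p under 0.05 it gave 3 instead of 1 for day 30 against day 20 in WT flies, with 310 of 10479 genes tested.

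In WT flies the libraries of days 30 and 20 lay apart, though no gene passed. Replicate 1 of day 20 is of the first file set, while all day 30 libraries are of the second. Within the second set all 7 genes were higher at day 30, with a median difference of 0.69 in log2 CPM. For each of the 7 genes, every WT library at day 30 lay above every WT library at day 20, where 5.98% of all genes tested did so. The log2 fold changes were 0.55 to 1.89 with a median of 0.75, and none passed (edgeR FDR 1). *IM23*, at the top of that range, had 2075, 1487, and 1986 normalized counts in WT flies at day 30, against 207, 719, and 575 at day 20. The mean over the 7 genes of the log2 CPM was 6.32 ± 0.34, 6.59 ± 0.59, 6.50 ± 0.37, and 7.43 ± 0.08 in WT flies on days 3, 10, 20, and 30 (SD, n = 3).

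In AD flies the corresponding means were 5.87 ± 0.68, 6.26 ± 0.38, 6.78 ± 1.02, and 7.58 ± 0.48, with the widest spread at day 20. There, 1 library lay far below the other two for the Bomanins and *IM10*. *IM23* had 141 normalized counts in AD day 20 replicate 1, against 1607 and 1744 in replicates 2 and 3. *IM1* had 617, against 2230 and 2261, and *IM10* had 8656, against 21004 and 19600. Replicate 1 is the library of the first file set, and it was also the lowest of the 3 for *IM2*, *IM3*, *IM4*, and *IM14*.

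Day 20 against day 10 in AD flies differed between file sets. In the second set all 7 genes were higher at day 20, with a median difference of 0.92 in log2 CPM. In the first set, with 1 library at each age, 3 of 7 were higher and the median was -0.10. The pooled fit gave a median log2 fold change of 0.66, from 0.12 for *IM4* to 1.67 for *IM23* (edgeR FDR 0.76 for *IM23*, 0 of 7 past the threshold). Without AD day 20 replicate 1 the median was 1.01. In a fit of the second set alone the median was 0.89, and 0 of 7 passed there or with the file set as a covariate. The rise of all 7 genes in the second set was not seen between the single libraries of the first.

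The AMP genes gave other values over the same interval. Of the 14 AMP genes, 12 rose in AD flies between days 20 and 10, with a median log2 fold change of 3.58, beside 0 of 7 and 0.66 for the immune-induced peptides. *Drs*, which encodes the antifungal Drosomycin and is a standard readout of Toll, had 1567, 4034, and 5248 normalized counts in AD flies at day 20, against 225, 216, and 309 at day 10 (log2 fold change 3.86, edgeR FDR 0.0043). *Mtk*, which encodes Metchnikowin, had 6398, 11137, and 9047 at day 20, against 429, 812, and 1000 at day 10 (3.57, FDR 1.2e-04). The call of *Drs* was lost without AD day 10 replicate 1 or replicate 2, at 3.78 and 3.75 with FDR of 0.0502 and 0.0544. *DptA* and *AttC*, encoding a diptericin and an attacin that respond to the IMD pathway, had log2 fold changes of 4.43 and 3.68. Replicate 1 of day 20, low for the 7 genes, lay above all day 10 libraries for *Drs* and *Mtk*. The change between days 20 and 10 in AD flies minus that in WT flies was 0.32 to 2.16 for the 7 genes and passed for none (0.0191% of all genes passed), with none at an unadjusted p under 0.05 by edgeR or DESeq2 (1.08% of all genes by edgeR).

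**Figure D3:**
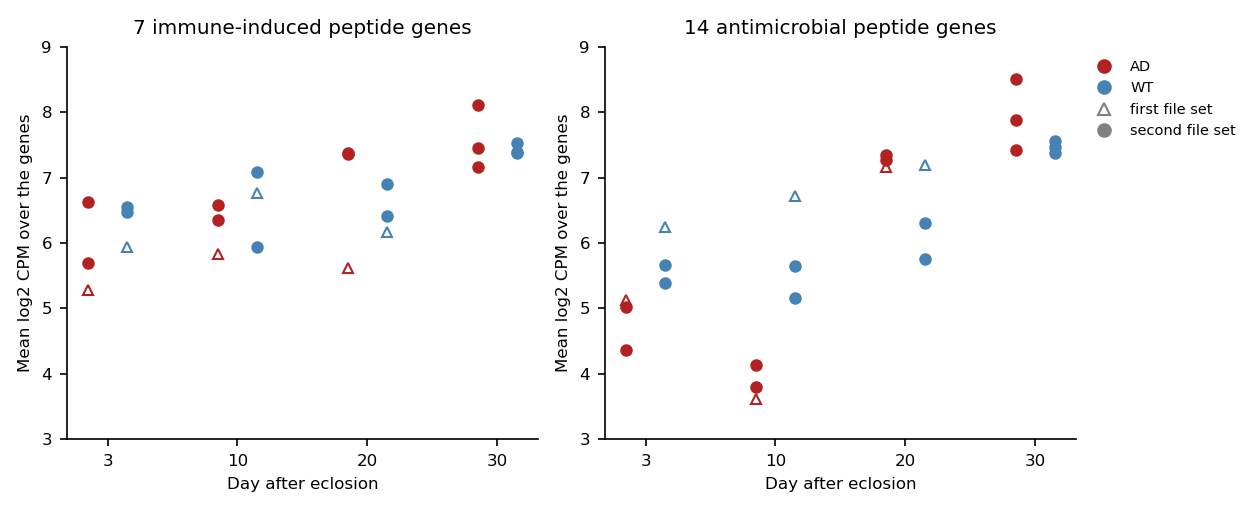
Mean log2 CPM (y axis) over the 7 immune-induced peptide genes (left panel) and the 14 AMP genes (right panel) in each library by day after eclosion (x axis), AD in red left of WT in blue, with open triangles for the first file set and filled circles for the second. The triangle of AD day 20 stands at 5.61 in the left panel, apart from the other AD libraries of that age. In the right panel it stands at 7.16, just below the others at 7.28 and 7.35.

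AD and WT flies were then compared at each age. None of the 7 genes differed at day 3, 10, 20, or 30, where 0.0286%, 0.172%, 0.0954%, and 0.0191% of all genes tested changed. No gene of the 7 had an unadjusted p under 0.05 by edgeR at any age, where 3.55%, 3.05%, 4.43%, and 7.86% of all genes did on days 3, 10, 20, and 30. DESeq2 gave 1 at day 3, with 369 of 10479 genes tested, and 0 at the other ages. The standard errors were 0.36 to 0.78 on the log2 scale, which sets the size of change that could be resolved at 3 libraries a group.

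The values moved in direction between ages. At day 3 the log2 fold changes ran from -1.59 to 0.18 (median -0.25), and at day 10 from -0.94 to -0.17 (median -0.24), negative for all 7. At day 20 they ran from 0.15 to 1.22 (median 0.34), positive for all 7, and at day 30 from -0.18 to 0.44 (median 0.27), positive for 6. The sign at day 20 differed between file sets, with a median difference of 0.72 in the second set, where all 7 were higher in AD flies, and -0.54 in the first, where all 7 were lower. At day 10 the medians were -0.06 in the second set and -0.50 in the first. The first set holds 1 library of each genotype at each of these ages. At day 30 the median was 0.04 without the library labelled AD day 30 replicate 3.

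*IM23* had the largest difference between genotypes at day 3. It had 128, 413, and 392 normalized counts in AD flies, against 657, 1678, and 458 in WT flies, with all AD libraries below all WT libraries (log2 fold change -1.59, standard error 0.78, edgeR FDR 1). At that age 1.79% of all genes tested separated in that direction. Without the WT library with high *Yp1* the value was -0.82. At day 30 *IM10* was the member whose AD libraries, at 25647 or more normalized counts, all lay above the WT libraries, at 24449 or fewer (log2 fold change 0.39, standard error 0.36, FDR 0.94), where 12.2% of all genes separated in that direction. Without the library labelled AD day 30 replicate 3, the highest log2 fold change of the 7 genes at day 30 was 0.18.

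At day 10 the AMP genes and the immune-induced peptides stood apart in their calls. Of the 14 AMP genes 5 were lower in AD flies, *AttC*, *DptA*, *DptB*, *Drs*, and *Mtk*, with a median log2 fold change of -2.04 over the 14, beside 0 of 7 and -0.24 for the immune-induced peptides. *Drs* had 225, 216, and 309 normalized counts in AD flies, against 6082, 787, and 1757 in WT flies (log2 fold change -3.53, edgeR FDR 0.022), with no overlap. *Mtk* had 429, 812, and 1000, against 3208, 1931, and 3656 (-1.98, FDR 0.037). *IM10*, the most abundant member in counts, had 8612, 10916, and 15186 in AD flies, against 12153, 9941, and 17071 in WT flies, which overlapped (-0.17, standard error 0.36, FDR 1). These calls depended on single libraries. That of *Drs* was kept without WT day 10 replicate 2 or replicate 3 and lost without any 1 of the other 4 libraries of that age, at -3.72 to -2.35 with FDR from 0.116 to 0.17. That of *Mtk* was lost without any 1 of the 6, at -2.25 to -1.69 with FDR from 0.052 to 0.27. The call of *AttC* was lost without any 1 of 3 libraries (FDR from 0.057 to 0.094) and that of *DptA* without AD day 10 replicate 2 (FDR 0.064), and *DptB* was not refitted without single libraries. No difference between the 2 groups of genes was tested.

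**Figure D4:**
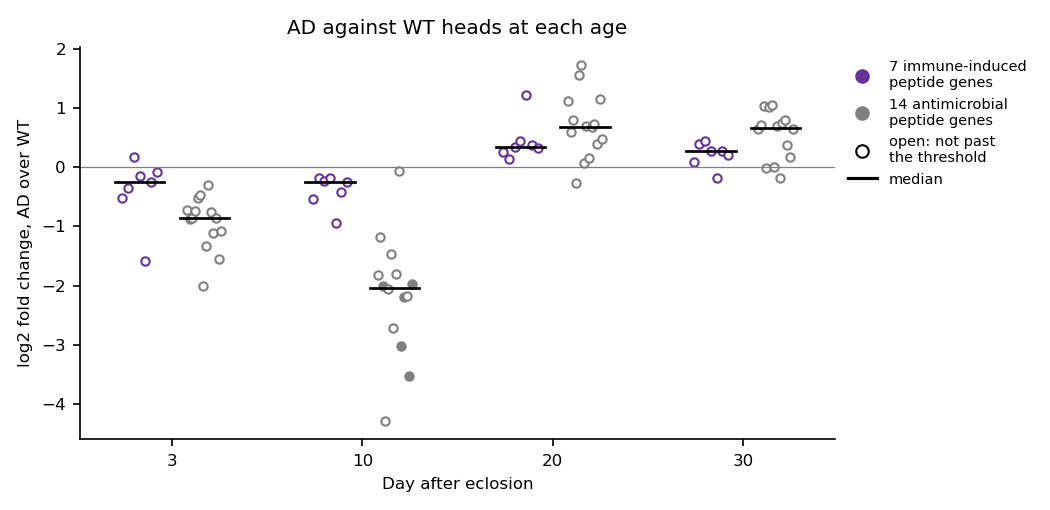
Log2 fold change of AD over WT (y axis) at each day after eclosion (x axis) for the 7 immune-induced peptide genes (purple) and the 14 AMP genes (grey), with filled circles for genes past the threshold and black bars for the medians. At day 10 the bars stand at -0.24 and -2.04, and no purple circle is filled at any age.

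Across libraries the 7 genes moved together. Over the 21 pairs of members, Pearson's r of log2 CPM over the 24 libraries was 0.444 to 0.973 with a median of 0.867, and with each group's mean removed 0.257 to 0.958 with a median of 0.826. The highest value was between *IM2* and *IM3* and the lowest between *IM4* and *IM23*. These values describe libraries that share depth, file set, and group, and carry no test. The mean of the 7 was also set beside the median level of the 272 tested genes shorter than 500 bases, taken relative to longer genes, and beside the mean of the 14 AMP genes. Over the 24 libraries as they stand r was 0.260 with the short genes and 0.667 with the AMP genes, and with each group's mean removed r was 0.675 with the short genes and 0.203 with the AMP genes. Between days 30 and 3 those short genes had a median log2 fold change of -0.14 in AD flies and -0.10 in WT flies, opposite in sign to the 7 genes, and 24.3% and 13.6% of them changed. The part of short genes in the age change was not tested.

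Likeness to the 7 was measured over all genes tested. Ranked by r with the mean of the 7 over the 24 libraries, the first were *BomBc3* (0.955), *Bbd* (listed as *CG18067*, 0.953), *BomT2* (0.941), *BomS5* (0.922), *BomT3* (0.909), *NimB2* (0.901), *BomBc2* (0.896), *TRAM* (0.887), *IM33* (0.882), and *CG31769* (0.878). *Bbd*, or Bombardier, encodes a secreted protein that short Bomanins need to build up in the blood, and 5 of the 10 are Bomanins. The other Bomanin and Baramicin genes tested had lower values, *BomT1* (0.871), *BomS4* (0.769), *BaraC* (0.581), *BaraA2* (0.472), and *BomS6* (0.309). Among the AMP genes the highest was *Def* (0.781), and *Drs* was at 0.634.

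Of the 11 other Bomanin and Baramicin genes, 10 were tested, and *BaraB*, listed in 8 libraries, was not. Between days 30 and 3, 5 of the 10 rose in AD flies and 3 in WT flies, with none lower, where 3.88% and 1.63% of all genes tested rose. *BomBc2*, *BomT2*, and *BaraA2* passed in both genotypes, with log2 fold changes of 1.92, 2.09, and 3.78 in AD flies and 1.29, 1.51, and 4.38 in WT flies. *BomBc3* (1.74) and *BomT1* (2.18) passed in AD flies. Of these calls, those of *BomBc2* and *BomT2* in WT flies and of *BomBc3* in AD flies were lost without 1 library or another, with FDR from 0.055 to 0.19. *BomS4*, *BomS5*, *BomS6*, *BomT3*, and *BaraC* passed in neither, with values from 0.17 to 1.25 in AD flies and from 0.25 to 1.13 in WT flies. *BomBc2* and *BomS4* overlap on opposite strands, at 18384824 to 18385589 and 18384567 to 18384911 on 2R, so their separate values are uncertain.

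*BaraA2* did not rise in every library. It had 1789, 97.6, and 89.4 normalized counts in AD flies at day 30, against 14.9, 121, and 9.3 at day 3. In WT flies it had 1188, 173, and 1144 at day 30, against 11.1, 51.6, and 61.9 at day 3. High values were thus confined to 3 of the 6 day 30 libraries, while *IM10*, the copy with which it shares reads, was high in all 6. At day 10 *BaraA2* reached 262 in WT flies, above 3 of the 6 day 30 libraries. Without AD day 30 replicate 1 its log2 fold change in AD flies was 0.94 (edgeR FDR 0.60). The AD call was lost without any 1 of 3 AD libraries, at 0.94 to 3.31 with FDR from 0.084 to 0.60, and the WT call without any 1 of 4 WT libraries, at 3.88 to 4.62 with FDR from 0.065 to 0.10.

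Upstream genes of the Toll pathway were tested from a list of 22, of which 21 passed the filter. Between days 30 and 3, 3 rose in AD flies and the same 3 in WT flies, beside the same 3.88% and 1.63% of all genes. *PGRP-SD* and *PGRP-SA*, which encode secreted receptors for bacterial peptidoglycan, had log2 fold changes of 2.87 and 2.03 in AD flies and 2.17 and 1.55 in WT flies. *Hayan*, which encodes a protease of the cascade that activates Spätzle, had 1.74 and 1.14. *PGRP-SD* had 3170, 4000, and 5144 normalized counts in AD flies at day 30, against 493, 520, and 679 at day 3, and 3788, 3720, and 3708 in WT flies, against 812, 785, and 901. The ages did not overlap in either genotype. The median of the 21 was 0.47 in AD flies and 0.28 in WT flies, and no gene of the list differed between AD and WT flies at any age. *PGRP-SD* was also the gene of the list that rose in AD flies between days 20 and 10 (1.43).

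Markers of fat body and blood cells were summed at both ages. The summed FPKM of the 6 fat body markers was 380 to 554 in AD flies at day 30, against 352 to 482 at day 3. In WT flies it was 322 to 407 at day 30, against 332 to 672 at day 3. For the 5 blood cell markers the sums were 79.9 to 93.0 in AD flies at day 30, against 63.8 to 105 at day 3, and 74.3 to 93.2 in WT flies, against 70.1 to 98.3. All genes of both lists were above 0 in all libraries, the ranges of days 30 and 3 overlapped in each case, and no gene of either list passed both limits. Single fat body markers still ran from -2.17 to 0.83 in log2 fold change in AD flies and from -4.15 to 0.45 in WT flies. Markers of other cells moved over the same interval, in which 398 of all 10479 genes tested were lower in AD flies and 299 in WT flies. Of the 4 glial markers 2 were lower at day 30 in both genotypes, *nrv2* and *alrm*, with sums of 437 to 569 FPKM in AD flies at day 30, against 627 to 1341 at day 3, and 497 to 580 in WT flies, against 680 to 1212. Of the 3 muscle markers 2 were lower in both genotypes, *Mhc* and *up*, with sums of 542 to 760 in AD flies, against 754 to 2019, and 689 to 809 in WT flies, against 864 to 1750. Of the 5 neuron markers 1 was lower in AD flies, *Syt1*, and 0 in WT flies, with sums of 401 to 520 in AD flies, against 639 to 821, and 581 to 626 in WT flies, against 596 to 787. Of the 4 photoreceptor markers *ninaC* was lower in both genotypes, while the sums were 25520 to 26800 in AD flies, against 20750 to 26110, and 28975 to 31431 in WT flies, against 19308 to 27771. Of the 3 yolk protein genes, which mark the female fat body, *Yp1* was higher in AD flies and none changed in WT flies, with sums of 110 to 138 in AD flies, against 56.4 to 58.3, and 111 to 130 in WT flies, against 54.0 to 119. All of these genes were above 0 in all libraries, and their part in the age change of the 7 genes was not tested.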

How the data were processed

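Poly-A RNA from pooled male heads was sequenced as paired-end reads in 24 libraries. The authors cleaned the reads with SOAPnuke, aligned them to *Drosophila melanogaster* release 6 with HISAT2 2.0.4, and per the labels used Bowtie2 and RSEM to quantify genes, including transcripts they had added. The deposited files give RSEM expected counts per gene (estimated, not always whole) and FPKM, which the authors computed from them with gene lengths that differ between libraries. The added transcripts lengthened *IM1* to between 386 and 504 bases in the 6 libraries of the first file set, against 361 in the others. Added genes took no part in the tests.

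Expected counts were rounded and tested with edgeR 4.0.16 (TMM, filterByExpr, quasi-likelihood) over 8 groups of 3 with no covariate. Normalized counts are counts scaled to the mean effective library size. FPKM was used to compare levels between genes and in limma 3.58.1 on log2(FPKM + 1) and log2(FPKM + 0.1), and DESeq2 1.42.0 was an alternative. Other alternatives were RLE factors, other filters (none, or a mean of 10 counts), a fit of only those groups a contrast names, a block for replicate number, the file set as a covariate or the second set alone, no limit on fold change, and each library left out. Counting *IM10* with *BaraA2* was added after seeing the data. The fits were tested on simulated data. The members and gene lists were chosen with earlier results of these data known. Named were the 7 members, their relatives, Toll genes past the threshold, *Drs*, *Mtk*, *DptA*, *AttC*, *w*, *Yp1*, the 10 genes most alike, and, chosen after their values were seen, cell type markers past the threshold between days 30 and 3. Symbols and positions come from the BDGP6 annotation. No sequence was analysed here.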

Additional observations from a re-analysis of the deposited data

How the results depend on the processing

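The number of the 7 genes past the threshold was 0 in every alternative for all contrasts except day 30 against day 3. In AD flies that count was 6, and was 4 in a fit of only the groups compared. It was 5 in the second file set alone, where 461 of 10288 genes tested rose. It was 6 in the other alternatives, and 2 to 6 with single libraries left out. In WT flies it was 1, and became 3 with DESeq2, 5 in a fit of only the groups compared, 4 with limma on either FPKM scale, and 0 in the second file set alone, where *IM10* was at 0.99 (FDR 0.022). In the second set alone 225 of 10288 genes tested rose in WT flies. The count in WT flies was 0 to 1 with single libraries left out. With the replicate number as a block the count was 5 in WT flies and 6 in AD flies, where 247 and 489 of 10479 genes tested rose. Same-numbered AD and WT libraries had correlated deviations on days 3, 10, and 20 (0.404, 0.540, and 0.555) and not on day 30 (-0.0412). Every pair was over 0.1 on days 10 and 20 and not on days 3 and 30, and not every library correlated best with its own number, so the numbers were not taken as pairs, and replicate 1 came from the first file set on those 3 days.

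With single libraries left out, the sign turned for several values that had not passed. For AD against WT flies the ranges were, at day 3, -0.76 to 0.17 for *IM2*, -0.62 to 0.021 for *IM3*, -0.48 to 0.25 for *IM4*, and -0.56 to 0.54 for *IM14*. At day 10 they were -0.43 to 0.23 for *IM2*, -0.68 to 0.024 for *IM3*, -0.43 to 0.067 for *IM10*, and -0.51 to 0.19 for *IM14*. At day 20 they were -0.014 to 0.64 for *IM1* and -0.082 to 0.44 for *IM10*, and at day 30 -0.40 to 0.30 for *IM1*, -0.17 to 0.49 for *IM4*, and -0.50 to 0.047 for *IM23*. In AD flies they were -0.10 to 0.39 for *IM4* and -0.068 to 0.63 for *IM14* between days 20 and 10, and -0.036 to 0.91 for *IM23* between days 30 and 20. The change of AD minus WT flies between days 30 and 3 ran from -0.12 to 0.68 for *IM4* and from -0.11 to 0.99 for *IM14*. *BomS6* between days 30 and 3 ran from -0.16 to 1.15 in AD flies and from -0.076 to 1.07 in WT flies. In the second file set alone, *IM23* was at 0.23 for AD against WT flies at day 10 and at -0.037 in AD flies between days 30 and 20, and *BomS6* at -0.11 in AD flies between days 30 and 3. With the block, *IM1* was at -0.035 for AD against WT flies at day 30. The cause of these turns was not tested beyond the libraries named.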
